A study of Mus musculus with 28 samples.

Results

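Thy1+ cells of days 6, 9 and 12 of factor-induced reprogramming are fibroblast-derived cells that still carried the fibroblast surface marker Thy1 on those days, and they are commonly called refractory. They were taken by their titles: 4 arrays, 2 of day 6 (M2 and M3), 1 of day 9 and 1 of day 12 (both M2). They were set against the 2 arrays of Thy1+ cells of day 3 (M2 and M3). These 6 arrays are part of a series of 28, and of its larger table of 24 arrays in 15 groups.

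The series followed mouse embryonic fibroblasts (MEFs) through reprogramming to induced pluripotent stem (iPS) cells, by microarray, in fractions sorted by surface marker. All cells came from C57BL6/129 embryos at E13.5 that carried the OKSM cassette, which expresses Oct4, Klf4, Sox2 and Myc under doxycycline, and the Rosa26-M2rtTA transactivator. The growth text describes heterozygous and homozygous embryos without saying which array is which. The late and the day 3 Thy1+ groups had the same treatment, doxycycline in embryonic stem cell medium with serum and LIF, for different times, and all were labelled Thy1 positive, SSEA1 negative and GFP negative. Other fractions of the same days were SSEA1+ cells (6 arrays) and cells negative for both markers (titled Thy-, 6 arrays), and 2 arrays of uninduced MEFs stand for day 0. The labels do not say whether M2 and M3 were separate animals or cultures, so the p-values reflect array-to-array spread that may be technical, and days 9 and 12, with 1 array each, have no replicate of their own.

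Thy1 is a surface glycoprotein of fibroblasts that is lost early in successful reprogramming, while the SSEA1 carbohydrate marks cells on the way to pluripotency. Cells that keep Thy1 under continued factor expression rarely give rise to iPS colonies. Cell division genes are transcribed in a periodic programme: DNA replication genes in the G1 and S phases, largely through E2F factors, and mitotic genes in G2 and M, largely through MuvB complexes with B-Myb and FoxM1. Fibroblasts that stop dividing lower both programmes, and fibroblasts of connective tissue secrete collagens, elastic fibre proteins, proteoglycans and complement proteins.

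Array medians lay between 6.835 and 6.988 on the log2 scale, and no arrays held identical values. Among the 4 late Thy1+ arrays, 2 stood apart. The day 6 M2 array had a Gapdh 3′ minus 5′ difference of 1.78 (log2), against 0.934 on day 6 M3, 0.98 on day 9, 1.11 on day 12, and 0.732 and 0.738 on day 3. A large 3′ to 5′ difference is a usual sign of RNA degradation. Over all genes the SD between the day 6 Thy1+ arrays was 0.464, against 0.128 between the day 3 Thy1+ arrays (root mean square, log2). The day 12 array had an 18S ribosomal RNA signal of 9.25, against 7.08 to 7.27 on the day 6 and 9 arrays and 7.47 and 7.22 on day 3, and MEFs had 9.26 and 9.04. The day 12 arrays of other fractions had 8.338 (double negative), 8.535 (SSEA1+) and 8.762 (GFP+). The main counts are therefore given with and without the day 6 M2 array, and with the day 12 value named where it stands apart.

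The sorting marker matched the label. Thy1 was at 11.95 and 11.49 on day 6, 11.55 on day 9 and 11.44 on day 12, against 10.82 and 10.90 on day 3, and averaged 11.79 in MEFs and 9.02 in late SSEA1+ cells. All 4 late arrays were above both day 3 arrays, by 0.74 ± 0.23 (log2 difference and SE; limma adjusted p = 0.0263), which is under 2-fold. Fut9, the fucosyltransferase that makes the SSEA1 epitope in stem cells, was between 3.33 and 3.52 on the 4 late arrays and at 3.42 and 3.44 on day 3, with a mean of 6.15 in late SSEA1+ cells.

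Of 12 fibroblast markers, 10 were measured: Thy1, Pdgfrb, Col1a1, Col3a1, Dcn, Lum, Twist1, Prrx1, Vim and S100a4. Thy1 was also the sorting marker, so part of any difference between fractions in their mean is built in. Their mean log2 level was 10.93, 11.01, 11.12 and 11.08 on the late arrays (day 6 M2, day 6 M3, day 9, day 12), against 10.64 and 10.76 on day 3. MEFs had 11.93 and 11.95, and iPS lines had 7.36 to 8.19. Twist1, Prrx1, Vim and Col3a1 differed from day 3 by less than 0.1 (log2). S100a4, a calcium-binding protein used as a fibroblast marker, was called lower, by −1.89 ± 0.25. The pluripotency markers Nanog, Sall4, Dppa5a, Utf1, Zfp42, Esrrb and Lin28a averaged 4.64 and 4.62 on day 6, 4.81 on day 9 and 5.85 on day 12, against 4.35 and 4.49 on day 3 and 11.30 to 11.51 in iPS lines. The 7 epithelial markers averaged 4.82, 4.79, 4.97 and 5.86 on the same late arrays, against 5.06 and 5.04 on day 3. The day 12 Thy1+ array was thus the highest of the 4 for both marker sets, while still far below the iPS lines.

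Between day 3 and the later days, all 29 measured mitosis genes and 27 of 34 DNA replication genes were called lower in Thy1+ cells. Genes of several secreted proteins, among them elastin and asporin, rose. Genes were called at a limma p under 0.05, adjusted by Benjamini-Hochberg across the 11807 genes, together with a difference of 2-fold or more. The late arrays differed from day 3 in 875 genes (7.41% of those tested), 488 higher (4.13%) and 387 lower (3.28%). Without the day 6 M2 array there were 809 calls (6.85%), 460 higher (3.9%) and 349 lower (2.96%), of which 717 were shared, with none in opposite directions. For 477 of the 488 higher and 384 of the 387 lower genes the 4 late arrays did not overlap with the day 3 arrays. Over all genes, 25% lay higher and 18.9% lower on all 4 late arrays without overlap. In bulk RNA of a sorted fraction, a smaller share of cells that make a transcript and less of it per cell cannot be told apart.

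The genes called higher had a median log2 difference of 1.38 in Thy1+ cells, and those called lower of −1.43, against a median of 0.07 over all genes. In the limma interaction against SSEA1+ cells over the same days, 196 of the 488 higher and 189 of the 387 lower genes were also called in the same direction. Over all genes, 2.53% were called more positive and 2.62% more negative. Both tests use the same Thy1+ arrays, so part of this overlap is built in. The late mean of 259 of the 488 higher genes lay within 1 log2 unit of the MEF mean, of 171 more than 1 unit past it and of 58 more than 1 unit short of it. Of the 387 lower genes, 271 lay within 1 unit of MEFs, 98 past them and 18 short of them. No share over all genes stands beside these MEF counts, and the genes were picked by their late values. The counts describe the called genes and cannot show whether they return to the MEF level more than other genes do.

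Mitotic genes fell together, with the lowest median of the 37 gene lists. All 29 measured genes of the mitosis list were called lower in late than in day 3 Thy1+ cells, with a median of −2.60, where 3.28% of all genes were called lower. All 29 were also called without the day 6 M2 array and without each other array in turn. The lists were chosen with earlier results of these data known.

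Spindle and kinetochore genes had some of the largest differences. Cenpe, the kinetochore motor that moves chromosomes to the metaphase plate, was at 4.38 and 5.38 on day 6, 5.30 on day 9 and 4.39 on day 12, against 8.36 and 8.66 on day 3. The late arrays were all about 3 log2 units or more below the day 3 arrays (−3.65 ± 0.23, limma adjusted p = 5.44e-08). Bub1, a kinase of the spindle checkpoint, was at 6.25 and 6.63 on day 6, 6.65 on day 9 and 5.38 on day 12, against 9.51 and 9.73 on day 3 (−3.40 ± 0.14). A second Bub1 probe set differed by −0.91. Ttk, the checkpoint kinase that recruits Bub1, was at 5.44 and 6.49 on day 6, 6.60 on day 9 and 5.37 on day 12, against 8.95 and 9.25 on day 3 (−3.13 ± 0.21). In each of these genes the groups did not overlap, which was a condition for naming the genes of largest difference.

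The mitotic cyclin Ccnb2 and the proliferation marker Mki67 were lower as well. Ccnb2, a B-type cyclin that drives entry into mitosis, was at 7.44 and 7.50 on day 6, 7.42 on day 9 and 5.90 on day 12, against 9.94 and 10.14 on day 3 (−2.98 ± 0.12, limma adjusted p = 1.65e-09). The day 12 array lay 1.5 log2 units below the other late arrays. Mki67, the Ki-67 antigen of cycling cells, was at 7.45 and 8.88 on day 6, 8.96 on day 9 and 7.45 on day 12, against 11.11 and 11.30 on day 3 (−3.02 ± 0.26). Cdk1, the partner kinase of the mitotic cyclins, was at 8.51 and 9.31 on day 6, 9.45 on day 9 and 8.70 on day 12, against 11.13 and 11.15 on day 3 (−2.15 ± 0.17). Cdc20, which activates the anaphase-promoting complex, was at 7.38 and 7.54 on day 6, 7.40 on day 9 and 6.38 on day 12, against 9.83 and 9.99 on day 3 (−2.73 ± 0.12).

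Further genes that fell act at the midbody, the spindle, the kinetochore or the replication fork. Kif23, the motor of the central spindle, averaged −3.20 ± 0.17, although a second probe set showed 0.09. Cep55, which recruits the abscission machinery to the midbody, was at 6.69 and 7.56 on day 6, 7.42 on day 9 and 6.00 on day 12, against 10.38 and 10.40 on day 3 (−3.47 ± 0.22). Aspm, a spindle pole protein, differed by −3.33 ± 0.17, and Shcbp1, a midbody-associated protein, by −3.12 ± 0.16. Ska1, of the kinetochore complex that holds microtubules, differed by −3.10 ± 0.16, but its probe sets disagreed, up to 0.07. Pclaf, a partner of the replication clamp PCNA, differed by −3.50 ± 0.20.

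The level reached was below that of uninduced fibroblasts. Relative to the day 3 mean, the median of the 29 mitotic genes was −2.36 and −2.29 on day 6 (M2 and M3), −2.35 on day 9 and −3.38 on day 12, against −1.72 and −1.85 in MEFs. On the day 12 array all 29 lay below both MEF arrays, against 40.3% of all genes, and 23 of the 29 (79.3%) did so on all 4 late arrays, against 20.1% of all genes. The lowest of the 4 late values was on day 12 for 25 of the 29 genes.

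**Figure D1:**
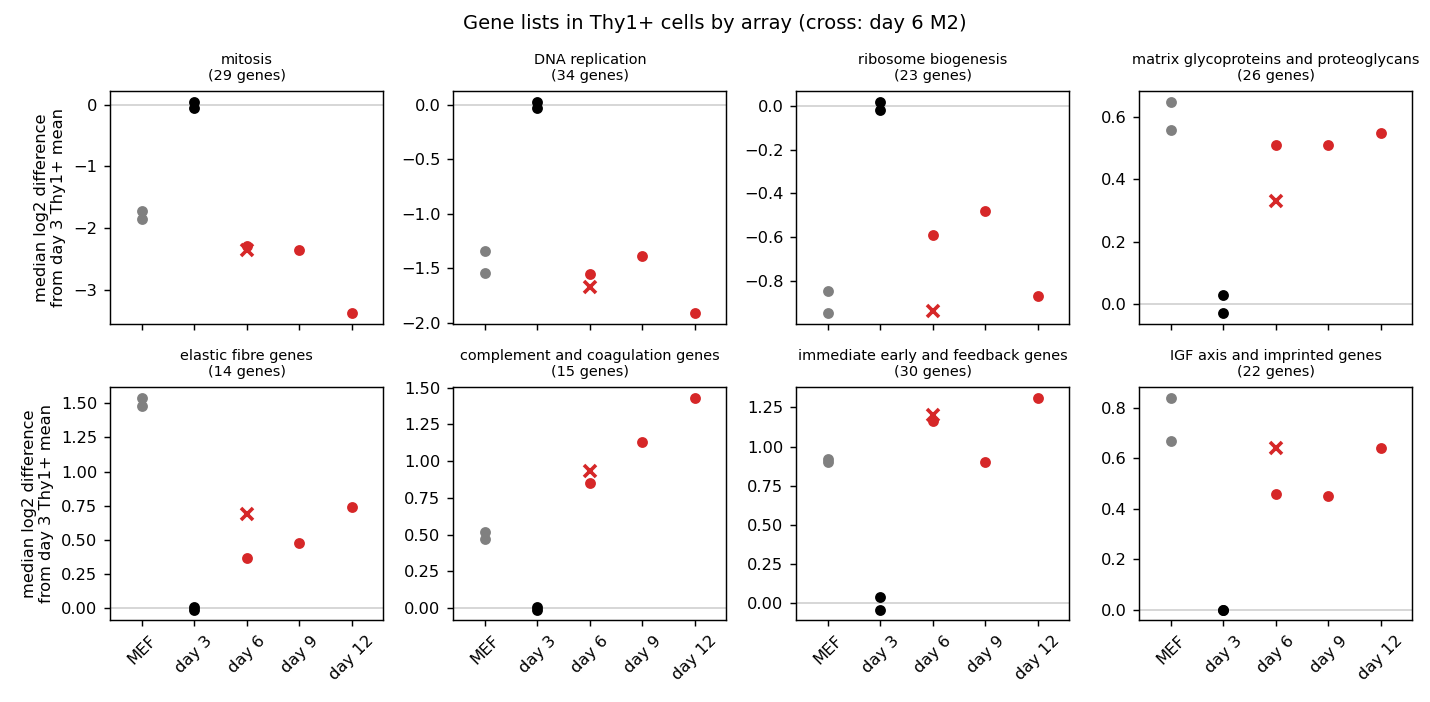
Median log2 difference of 8 gene lists from the mean of the day 3 Thy1+ arrays, 1 point per array, for MEFs and for Thy1+ cells of days 3, 6, 9 and 12 (the cross is the day 6 M2 array; the vertical scales differ). The mitosis list drops to −2.36 and −2.29 on day 6 and −3.38 on day 12, below the MEF arrays at −1.72 and −1.85, while complement genes reach 1.43 on day 12, above MEFs at 0.52 and 0.47.

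The promoters of these genes are shown because they share short elements of the cell cycle programme. Of the 29 genes, 24 matched RefSeq promoters on GRCm38.p6 (26 windows of 250 bases before to 50 after the transcription start). The cell cycle homology region (CHR, TTTGAA, either strand) stood in 20 of 26 windows (76.9%). It stood in 17.9% of all 32851 promoter windows and in 13.1% of the 11986 windows of genes on the arrays. The CCAAT box (CCAAT, either strand) stood in 22 of 26 (84.6%), against 37.4% and 37.5%. The motifs can share only end bases. A match is a description, and binding was not measured. In the windows below, 5′ to 3′ on the gene's strand, capitals mark both motifs. Cenpe, the gene of the largest fall, holds a CCAAT box but no TTTGAA match in its window. Other forms of the CHR were not searched.
Ccnb2 promoter, chr9:70421505-70421804, minus strand: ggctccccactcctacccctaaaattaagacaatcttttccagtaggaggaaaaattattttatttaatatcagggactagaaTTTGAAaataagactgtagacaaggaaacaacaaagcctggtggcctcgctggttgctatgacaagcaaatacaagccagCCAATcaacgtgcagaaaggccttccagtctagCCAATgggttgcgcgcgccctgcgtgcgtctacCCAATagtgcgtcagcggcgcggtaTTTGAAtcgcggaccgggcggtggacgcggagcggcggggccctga
Cdc20 promoter, chr4:118437294-118437593, minus strand: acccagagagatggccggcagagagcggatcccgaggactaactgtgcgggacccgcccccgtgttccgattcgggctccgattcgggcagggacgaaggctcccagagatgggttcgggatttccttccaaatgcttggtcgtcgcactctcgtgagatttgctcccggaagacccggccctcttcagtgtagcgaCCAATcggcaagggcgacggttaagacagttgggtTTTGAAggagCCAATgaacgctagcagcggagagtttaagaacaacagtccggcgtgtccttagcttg
Kif23 promoter, chr9:61946750-61947049, minus strand: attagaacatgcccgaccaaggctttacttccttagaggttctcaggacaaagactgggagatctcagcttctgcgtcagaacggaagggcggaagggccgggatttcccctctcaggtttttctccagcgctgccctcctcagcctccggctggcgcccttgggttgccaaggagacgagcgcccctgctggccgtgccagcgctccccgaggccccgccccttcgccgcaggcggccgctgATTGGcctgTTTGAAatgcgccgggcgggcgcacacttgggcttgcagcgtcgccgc
Ttk promoter, chr9:83834439-83834738, plus strand: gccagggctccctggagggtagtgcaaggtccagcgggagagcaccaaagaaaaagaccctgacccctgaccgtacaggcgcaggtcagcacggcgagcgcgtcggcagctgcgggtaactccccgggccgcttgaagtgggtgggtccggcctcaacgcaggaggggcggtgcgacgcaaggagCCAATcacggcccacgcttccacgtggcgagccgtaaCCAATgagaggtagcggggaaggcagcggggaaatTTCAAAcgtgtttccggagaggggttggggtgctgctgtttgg
Cenpe promoter, chr3:135212313-135212612, plus strand: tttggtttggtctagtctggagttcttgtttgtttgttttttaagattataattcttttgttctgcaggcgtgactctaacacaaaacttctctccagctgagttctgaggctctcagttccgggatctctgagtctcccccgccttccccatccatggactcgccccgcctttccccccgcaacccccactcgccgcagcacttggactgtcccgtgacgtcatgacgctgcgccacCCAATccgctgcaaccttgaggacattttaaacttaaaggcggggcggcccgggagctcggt

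DNA replication genes fell with them, less far. Of 34 measured genes, 27 were called lower and none higher, with a median of −1.67 (25 lower without the day 6 M2 array). Over all genes, 3.28% were called lower. Relative to the day 3 mean, their median was −1.67 and −1.55 on day 6, −1.39 on day 9 and −1.91 on day 12, against −1.34 and −1.54 in MEFs, so the late arrays lay nearer to MEFs than for the mitotic genes. Cdc6, the loader of the replicative helicase, was at 4.11 and 4.59 on day 6, 4.55 on day 9 and 3.64 on day 12, against 6.97 and 7.01 on day 3 (−2.77 ± 0.15, limma adjusted p = 1.77e-08). Mcm5, a subunit of that helicase, was at 6.66 and 6.25 on day 6, 6.35 on day 9 and 5.20 on day 12, against 8.77 and 8.88 on day 3 (−2.71 ± 0.16). Rrm2, the regulated subunit of ribonucleotide reductase, was at 7.30 and 8.11 on day 6, 7.45 on day 9 and 7.23 on day 12, against 10.14 and 10.04 on day 3 (−2.57 ± 0.18). In all 3 genes every late array was at least 1.9 log2 units below both day 3 arrays.

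Of the 34 replication genes, 28 matched promoters (33 windows). The E2F element TTTGGCG stood in 24.2% of these windows, against 1.56% of all windows and 2.22% of those of genes on the arrays. TTTCCCG stood in 18.2%, against 3.39% and 4.9%, either strand. CHR stood in 9.09%. Mcm5 is shown as the gene of the list with a large fall and an E2F element, in capitals and on the reverse strand; other motifs are not marked.
Mcm5 promoter, chr8:75109259-75109558, plus strand: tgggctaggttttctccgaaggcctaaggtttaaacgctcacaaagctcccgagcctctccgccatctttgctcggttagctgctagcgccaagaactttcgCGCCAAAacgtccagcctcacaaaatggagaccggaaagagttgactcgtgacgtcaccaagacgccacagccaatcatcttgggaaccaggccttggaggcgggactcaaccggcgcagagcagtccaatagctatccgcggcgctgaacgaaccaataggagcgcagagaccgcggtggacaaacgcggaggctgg

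Of the DNA methylation and Polycomb genes, 4 of 21 were called lower and none higher (median −0.32), against 3.28% and 4.13% of all genes. These were Hells (−2.49 ± 0.19), a chromatin remodeller needed for DNA methylation, Uhrf1 (−2.30 ± 0.27), which brings Dnmt1 to replicated DNA, Dnmt1 (−1.99 ± 0.11), the maintenance methyltransferase, and Ezh2 (−1.44 ± 0.18), the Polycomb methyltransferase. Dnmt1 was at 7.36 and 7.50 on day 6, 7.45 on day 9 and 7.54 on day 12, against 9.51 and 9.41 on day 3. The 4 late values lay within 0.2 log2 units of each other, and all were below the MEF mean of 8.32.

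Cell cycle inhibitors were mixed. Cdkn1c, the imprinted inhibitor p57, was at 10.04 and 9.87 on day 6, 9.89 on day 9 and 10.36 on day 12, against 7.63 and 7.66 on day 3 (2.39 ± 0.16, limma adjusted p = 8.06e-08). All 4 late arrays were more than 4-fold above day 3 and close to the MEF mean of 9.70. Cdkn1b, the inhibitor p27, was called higher (1.09 ± 0.28) but not without the day 6 M2 array, which was the highest at 12.11, against 10.62, 10.83 and 11.25 on the other late arrays. Cdkn1a, the p53 target p21, was between 11.15 and 11.58 on the late arrays and at 11.26 and 11.27 on day 3. Cdkn2a, the Ink4a/Arf locus associated with senescence, was between 9.30 and 9.55, against 9.39 and 9.18 on day 3. Cdkn2b (0.78 ± 0.22) was under 2-fold, and Cdkn2c, another Ink4 inhibitor, was called lower (−1.07 ± 0.14). Ccnd1 and Ccnd2, the D cyclins, differed by −0.07 and 0.04. Of the 22 genes of this list, 2 were called higher and 1 lower (median −0.07), against 4.13% and 3.28% of all genes.

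Genes of ribosome biogenesis were lower on average. All 23 had a negative difference, with a median of −0.72, but only Polr1b and Polr1e, subunits of RNA polymerase I, passed the call (−1.22 ± 0.19 and −1.14 ± 0.16), and 19 of 23 were lower at an unadjusted p under 0.05, against 17.8% of all genes. No gene of 34 for oxidative phosphorylation was called by limma, while 24 were lower at an unadjusted p under 0.05 (median −0.39). The 11 housekeeping genes had a median of −0.34, with Hprt alone called lower (−1.10 ± 0.19) and not so without the day 6 M2 array. Of 21 glycolysis genes, Eno2 (1.70) was called higher and Eno3 (−1.01) lower (median −0.34), and of 16 cholesterol synthesis genes, Fdps lower (−1.20) with all arrays only. Beside the calls of these lists stand 4.13% called higher and 3.28% lower over all genes.

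Egfl6 and Eln had the largest increases among the named genes. Egfl6, a secreted matrix protein with EGF repeats, was at 9.00 and 8.80 on day 6, 8.93 on day 9 and 9.73 on day 12, against 3.97 and 3.79 on day 3 (5.24 ± 0.19, limma adjusted p = 1.65e-09). MEFs averaged 8.63, so the late level was near that of the starting cells. Eln, which encodes elastin, was at 9.85 and 9.20 on day 6, 9.67 on day 9 and 10.13 on day 12, against 5.14 and 5.17 on day 3 (4.56 ± 0.19), with MEFs at 10.09. A second Eln probe set differed by 0.88. Mfap5, a microfibril protein of the same fibres, was at 11.42 and 10.25 on day 6, 11.03 on day 9 and 11.73 on day 12, against 7.98 and 7.91 on day 3 (3.16 ± 0.26). All late arrays of these genes were above day 3 without overlap, which for Egfl6 and Eln was a condition of the choice. Of 14 elastic fibre genes, 5 were called higher (4.13% over all genes) and none lower, with a median of 0.58. The others were Mfap4 (2.66), Mfap2 (1.52) and, with all arrays only, Loxl1 (1.01), an enzyme that crosslinks elastin. Without the day 6 M2 array, 4 genes of the list were called higher and 1 lower. Days 9 and 12 against day 3 gave 5 higher and 1 lower, Loxl2.

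Of 26 matrix glycoproteins and proteoglycans, 8 were called higher and none lower (median 0.44), against 4.13% and 3.28% of all genes. The small leucine-rich proteoglycans Aspn, Fmod, Ogn, Dcn, Omd and Prelp made up 6 of the 8. Without the day 6 M2 array, 8 were called higher and 1 lower. Days 9 and 12 against day 3 gave 8 higher and 1 lower, Vcan. Aspn was at 9.32 and 9.34 on day 6, 9.45 on day 9 and 10.57 on day 12, against 5.38 and 6.04 on day 3 (3.96 ± 0.20), and MEFs were higher still at 11.68. Dcn, decorin, was at 10.65 and 10.59 on day 6, 11.16 on day 9 and 12.24 on day 12, against 9.23 and 9.21 on day 3 (1.94 ± 0.24). In both genes the day 12 array was the highest. Postn, periostin, was at 9.71 and 10.30 on day 6, 10.38 on day 9 and 9.92 on day 12, against 6.80 and 6.91 on day 3 (3.22 ± 0.38), and stayed below MEFs at 12.68. Islr, a leucine-rich surface protein of mesenchymal cells, rose by 3.66 ± 0.22.

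Most collagens were not called, where 4.13% of all genes were called higher and 3.28% lower. Of 20 collagens, 4 were called higher and none lower (median 0.34), and 2 of them without the day 6 M2 array, Col11a1 (1.53) and Col8a1 (1.37). Col1a1 was at 12.68 and 12.55 on day 6, 12.64 on day 9 and 12.58 on day 12, against 11.94 and 12.21 on day 3, a difference of 0.54 ± 0.26 that did not pass (limma adjusted p = 0.137).

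Of 25 matrix proteases and inhibitors, 6 were called higher and none lower (median 0.31), against 4.13% and 3.28% of all genes. Without the day 6 M2 array, 6 were called higher and 1 lower. Days 9 and 12 against day 3 gave 6 higher and 1 lower, Adam12. Mmp2, the gelatinase of fibroblasts, was at 10.15 and 10.11 on day 6, 10.44 on day 9 and 10.49 on day 12, against 8.37 and 8.69 on day 3 (1.77 ± 0.18). Timp3, a matrix-bound inhibitor, rose by 1.59 ± 0.38, and Fap, a protease of activated fibroblasts, by 1.45. Of 18 contractile genes, 4 were called higher (median 0.31), with Mylk, myosin light chain kinase, at 2.80 ± 0.23, while Acta2, smooth muscle actin, differed by 0.32 ± 0.26 (limma adjusted p = 0.377). Cpxm2, a secreted carboxypeptidase-like protein, was at 9.21 and 9.60 on day 6, 10.30 on day 9 and 11.13 on day 12, against 6.00 and 6.16 on day 3 (3.98 ± 0.18), and its late arrays all exceeded MEFs at 7.37. Itgbl1, an integrin beta-like secreted protein, did the same, at 8.68 to 10.45, against 6.18 and 5.96 on day 3 and 7.16 in MEFs (3.42 ± 0.14).

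Of 15 complement and coagulation genes, 8 were called higher and none lower (median 1.03), against 4.13% and 3.28% of all genes. C4b, complement component C4, was at 8.02 and 7.71 on day 6, 8.28 on day 9 and 9.72 on day 12, against 5.11 and 5.22 on day 3 (3.27 ± 0.14, limma adjusted p = 3.12e-09), with MEFs at 5.50. Its probe set may also read the near-identical C4a. Serping1, the inhibitor of the first complement proteases, was between 11.38 and 11.76 on the late arrays, against 9.49 and 9.44 on day 3 (2.03 ± 0.13). Cfb, factor B of the alternative pathway, was at 7.15 and 7.44 on day 6, 8.06 on day 9 and 8.05 on day 12, against 6.37 and 6.06 on day 3 (1.46 ± 0.15). All late arrays of these 3 genes were above the MEF means. The median of the list relative to day 3 was 0.93 and 0.85 on day 6, 1.13 on day 9 and 1.43 on day 12, and 0.52 and 0.47 in MEFs. The day 12 array was the highest of the 4 for 9 of the 15 genes.

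The secreted antioxidant enzymes Sod3 and Gpx3 rose. Sod3, the secreted superoxide dismutase, was at 8.28 and 7.91 on day 6, 8.71 on day 9 and 10.09 on day 12, against 4.48 and 5.10 on day 3 (3.96 ± 0.17), and its second probe set differed by 1.36. Gpx3, the secreted glutathione peroxidase, rose by 2.27 ± 0.13. Only these and Aldh1a1 (1.07) of 21 oxidative stress genes were called, where 4.13% of all genes were called higher. The list had a median of −0.05.

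Of the imprinted and insulin-like growth factor (IGF) genes, 9 of 22 were called higher and none lower (median 0.50). Over all genes the shares were 4.13% and 3.28%. Igf2, the fetal growth factor, was at 11.72 and 10.73 on day 6, 10.97 on day 9 and 11.68 on day 12, against 8.06 and 8.06 on day 3 (3.21 ± 0.40). Igfbp5, an IGF-binding protein, was at 7.59 and 6.36 on day 6, 7.24 on day 9 and 9.51 on day 12, against 4.06 and 3.86 on day 3 (3.72 ± 0.29). The late arrays of both genes lay above day 3 throughout, which was a condition of their choice, and Igfbp5 was highest on day 12. Igfbp2 (2.53), Dlk1 (2.23), an imprinted inhibitor of differentiation, Meg3 (1.57), an imprinted long RNA, and Igf1 (1.43) rose as well.

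Of 30 immediate early and feedback genes, 19 were called higher and none lower, with a median of 1.20 (17 without the day 6 M2 array). Over all genes the shares were 4.13% and 3.28%. Fosb, an AP-1 subunit, was at 10.20 and 10.06 on day 6, 8.83 on day 9 and 10.19 on day 12, against 6.17 and 7.42 on day 3 (3.02 ± 0.35). Egr1, a growth factor-induced transcription factor, was between 12.88 and 13.09 on the late arrays, against 11.82 and 12.09 on day 3 (1.03 ± 0.14). Socs3, the feedback inhibitor of LIF signalling, was at 11.18 and 10.08 on day 6, 9.32 on day 9 and 10.23 on day 12, against 7.74 and 8.01 on day 3 (2.33 ± 0.24), with MEFs at 7.93. Dusp6 (1.77 ± 0.18) and Spry1 (1.84 ± 0.14), feedback inhibitors of the ERK pathway, rose as well. The list's median in MEFs was 0.90 and 0.92 above day 3.

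Of the TGF-beta and BMP pathway, 5 of 27 were called higher and none lower (3 without the day 6 M2 array, median 0.28). For this list and the next 2, 4.13% called higher and 3.28% lower over all genes stand beside the counts. Bmp4, a ligand, was at 9.49 and 8.90 on day 6, 9.15 on day 9 and 9.28 on day 12, against 6.07 and 6.67 on day 3 (2.83 ± 0.22), and all late arrays were above MEFs at 7.95. Pdgfrb, the platelet-derived growth factor receptor of fibroblasts, rose by 1.42 ± 0.15, as did Lpar1 (1.43), while Met, the receptor for hepatocyte growth factor, fell by 1.27 (log2). Those were the calls among 11 growth factor receptors (median 0.29). Of 27 mesenchymal transcription factors, Runx1 (1.36) and, with all arrays only, Snai1 (1.08) were called (median 0.21). No Hox gene of 26 was called by limma, with 9 higher and 2 lower at an unadjusted p under 0.05, against 20.4% higher and 17.8% lower over all genes.

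Inflammatory genes split. Of 34 chemokines and acute inflammatory genes, 4 were called higher and 6 lower (median 0.03), and 3 and 8 without the day 6 M2 array. Over all genes, 4.13% were called higher and 3.28% lower. Cxcl5, a neutrophil-attracting chemokine, was at 8.62 and 7.44 on day 6, 5.95 on day 9 and 6.33 on day 12, against 10.40 and 9.72 on day 3 (−2.97 ± 0.34). Its late arrays were all lower, a condition of its choice, with days 9 and 12 below day 6. Saa3, an acute phase protein (−2.09), Ccl20 (−2.01), Ptgs2, the inducible cyclooxygenase (−1.90), Il6 (−1.69) and Ccl2 (−1.60) fell as well. Cxcl12, a chemokine of resting stroma, was between 11.63 and 12.19, against 10.49 and 10.28 on day 3 (1.57 ± 0.15). Ccl8 (2.99 ± 0.48) and the eosinophil chemokine Ccl11 (1.65 ± 0.19) also rose. Ccl8 was highest on the day 6 M2 array at 9.56, against 6.83 to 8.23 on the other late arrays. Of 21 interferon response genes, Oas2 alone was called, higher. Of 22 unfolded protein and amino acid stress genes, 3 were called higher and 4 lower (median −0.04), the lower ones being the chaperone genes Pdia4 (−1.55) and Sdf2l1 (−1.33) and the serine synthesis genes Psat1 (−1.60) and Phgdh (−1.12).

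**Figure D2:**
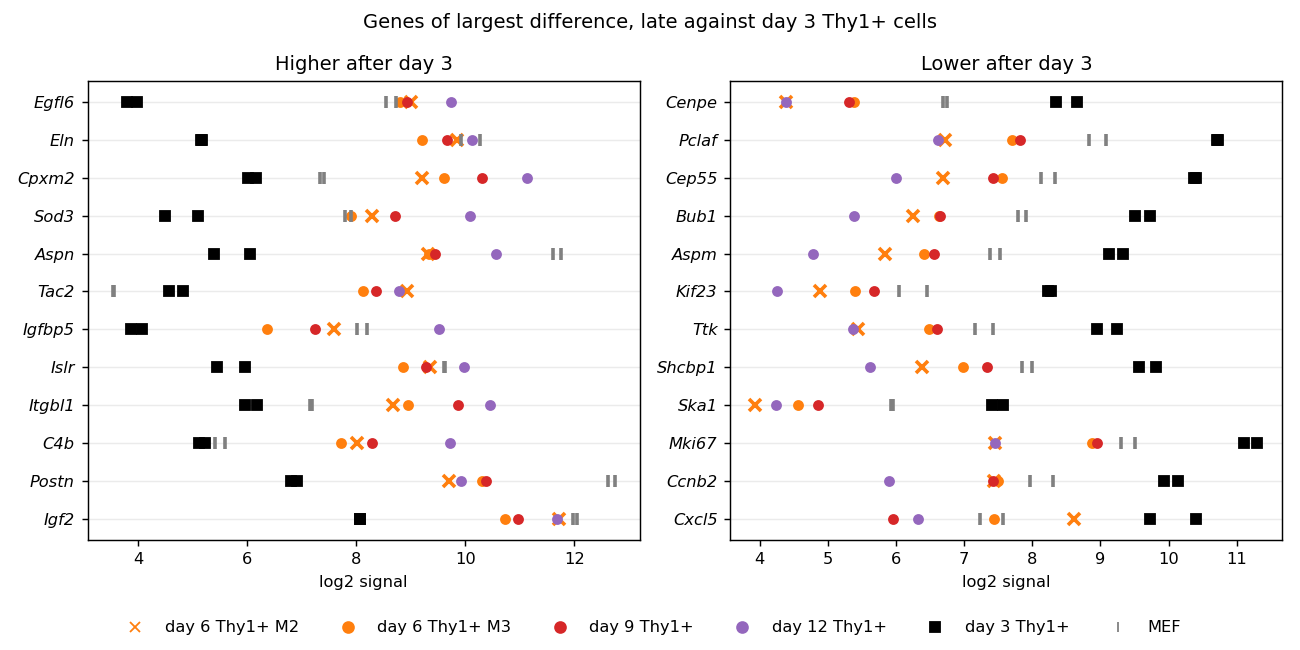
Log2 signal of the 12 most increased and 12 most decreased named genes between late and day 3 Thy1+ cells, 1 mark per array (late arrays coloured by day, cross for day 6 M2; squares for day 3; grey ticks for MEFs). All late marks lie apart from the day 3 squares, which was a condition for choosing these genes. Egfl6, for example, lies at 8.80 to 9.73 against 3.97 and 3.79. For Cpxm2, Itgbl1 and C4b the late marks also lie above the MEF ticks, and for Cenpe, Bub1 and Aspm below them.

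Of the reprogramming factors, only Klf4 was called. Myc was between 9.07 and 9.96 on the late arrays and at 9.45 and 9.53 on day 3, both above MEFs at 7.25. Klf4 was called higher, at 11.66 and 11.17 on day 6, 10.84 on day 9 and 11.07 on day 12, against 9.59 and 9.82 on day 3 (1.48 ± 0.15), and MEFs were at 10.94. Pou5f1 and Sox2 differed by 0.28 and 0.45 and were not called. The probe sets of these 4 genes may read the cassette as well as the endogenous genes. Some genes that are switched on by day 3 stayed on. Fgf4, a stem cell growth factor, was at 11.82 and 10.82 on day 6, 10.94 on day 9 and 10.12 on day 12, against 9.71 and 9.68 on day 3, with MEFs at 4.48. Podxl, a sialomucin, was between 10.44 and 11.42 against 11.20 and 11.15 on day 3, with MEFs at 5.48. Late Thy1+ cells thus carried transcripts that MEFs lack at these levels.

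Of 28 endogenous pluripotency genes, 3 were called higher and none lower (median 0.19), Sall4 (1.12), Klf2 (1.19) and, with all arrays only, Fgf4 (1.23). Over all genes, 4.13% were called higher and 3.28% lower. Sall4 was at 5.13 and 4.40 on day 6, 5.51 on day 9 and 7.51 on day 12, against 4.33 and 4.71 on day 3, so the groups overlapped and the day 12 array carried the difference. Nanog was at 4.67 and 4.47 on day 6, 5.37 on day 9 and 6.40 on day 12, against 4.07 and 4.63 on day 3. Of 12 genes induced early in reprogramming, 8 had a negative difference, and the median was −0.36. At an unadjusted limma p under 0.05, 6 were lower and 4 higher, against 17.8% and 20.4% of all genes. Called higher were 3, among them Tac2, the neurokinin B precursor (3.85 ± 0.22), and Tfap2c, an AP-2 factor (1.72 ± 0.19). Nefl, a neurofilament gene, was called lower (−2.75 ± 0.28). Tac2 was at 8.93 and 8.12 on day 6, 8.36 on day 9 and 8.78 on day 12, against 4.82 and 4.57 on day 3, and averaged 11.52 in late SSEA1+ cells and 3.53 in MEFs. Of 29 epithelial adhesion genes, Spint2 (1.13) was called higher and Krt19 (−2.90 ± 0.31) lower (median 0.21).

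Markers of other cell types had low mean levels on these arrays, and a mean can hide single members. Over all genes, 4.13% were called higher and 3.28% lower. The 21 macrophage markers averaged 4.69 to 4.79 on the late arrays, against 4.42 to 4.49 on day 3, with Lyz2, lysozyme, called higher (1.41). Of them 20 had a positive difference, and 7 (33.3%) were higher at an unadjusted limma p under 0.05, against 20.4% of all genes. The 14 endothelial markers averaged 5.29 to 5.34 against 5.13 to 5.20, the 21 epidermal markers 5.47 to 5.55 against 5.27 to 5.47 and the 9 erythroid markers 4.63 to 4.75 against 4.48 to 4.50, with none called by limma. Among 22 muscle markers (5.21 to 5.29 against 5.00 to 5.03) Tnnt1, a troponin, was called higher (1.55). The 18 neural and neural crest markers averaged 5.70 to 5.92 against 6.02 to 6.11, and 4 were called lower, Nefl, Nes (−1.53), Tubb3 (−1.43) and Stmn2 (−1.18). At unadjusted p under 0.05, 2 endothelial, 3 epidermal and 3 erythroid markers were higher and 1 epidermal marker lower, where 20.4% of all genes were higher and 17.8% lower. Of 20 lysosome and autophagy genes none was called (10 higher at an unadjusted p under 0.05, against the same 20.4%), and of 18 adipocyte, cartilage and bone genes Fabp4 alone was called, lower (−1.16).

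The changes were then set against those of SSEA1+ cells. The late change in Thy1+ cells differed from that in SSEA1+ cells in 608 genes (5.15% of those tested by the limma interaction), 299 more positive (2.53%) and 309 more negative (2.62%). Cell division genes had the largest median differences of the lists. The difference of changes was below 0 for all 29 mitotic genes (median −2.41, against 0.02 over all genes) and 33 of 34 replication genes (median −1.45). Of these, 28 and 22 were called more negative in Thy1+ cells. The same counts against the double negative fraction were 27 and 19, where 1.49% of all genes were called more negative and 1.97% in either direction. Mki67, for example, averaged 11.37 in late and 11.58 in day 3 SSEA1+ cells. Its difference of changes was −2.81 (limma adjusted p = 0.00023), and those of Cenpe, Pclaf, Cep55, Bub1, Aspm and Ttk lay between −3.07 and −2.98.

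Other genes had a more positive change in Thy1+ cells. Eln rose by 3.00 more in Thy1+ than in SSEA1+ cells (limma adjusted p = 9.1e-06), averaging 6.69 in late and 5.13 in day 3 SSEA1+ cells. Mfap4, a microfibril protein, was at 7.83 and 6.95 on day 6, 6.99 on day 9 and 7.99 on day 12, against 4.66 and 4.89 on day 3 in Thy1+ cells, and at 5.08 (late) and 5.02 (day 3) in SSEA1+ cells, a difference of changes of 2.61. Dkk2, a modulator of Wnt signalling, differed by 2.64, Igfbp5 by 2.50, Rflnb, a filamin-binding actin regulator, by 2.50, Ccl8 by 2.47, and C4b and Sod3 by 2.44 each. Of the elastic fibre genes 6 of 14 were called more positive and 1 more negative than in SSEA1+ cells. Called more positive were 6 of 25 matrix proteases and inhibitors and 6 of 26 matrix glycoproteins and proteoglycans. The counts for IGF and imprinted genes and for complement genes were 6 of 22 and 4 of 15. Over all genes, 2.53% were called more positive and 2.62% more negative. As single arrays were left out, the more positive counts lay between 3 and 6 for elastic fibre genes, 3 and 9 for proteases, 5 and 8 for glycoproteins, 3 and 6 for IGF and imprinted genes and 3 and 4 for complement genes. Against the double negative fraction fewer were called more positive, where 0.483% of all genes were. The counts were 2 elastic fibre genes, 0 proteases, 1 glycoprotein, 1 IGF or imprinted gene and 3 complement genes. Of the proteases and inhibitors, 9 were more positive there at an unadjusted limma p under 0.05, against 7.1% of all genes. Dkk2, Igfbp5 and Ccl8 were not called against that fraction.

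Of the 30 immediate early genes, 3 were called more positive than in SSEA1+ cells (Junb, Ier5 and Socs3), against 2.53% of all genes. This count lay between 0 and 7 as single arrays were left out. The difference of changes was above 0 for 25 of the 30 (median 0.35, against 0.02 over all genes). At an unadjusted limma p under 0.05, 11 were more positive (36.7%), against 11% of all genes. Egr1 averaged 12.59 in late and 11.46 in day 3 SSEA1+ cells, a difference of changes of −0.10. The chemokines and acute inflammatory genes called lower in Thy1+ cells were not called in the interaction: Cxcl5 averaged 5.17 in late and 8.27 in day 3 SSEA1+ cells, a difference of changes of 0.13 (limma adjusted p = 0.91). Pkp1, a desmosome protein, differed by −2.90: it was between 4.90 and 5.34 on the late Thy1+ arrays, against 5.09 and 4.79 on day 3, and averaged 8.55 in late and 5.44 in day 3 SSEA1+ cells. Of the pluripotency genes 22 of 28 and of the epithelial genes 23 of 29 had a difference of changes below 0. In each list 6 were called more negative, against 2.62% of all genes, among them Nanog (−1.82), Cdh1, E-cadherin (−2.49), and Epcam (−2.10). These counts lay between 2 and 8 and between 4 and 9 as single arrays were left out. Of the 12 early induced genes, 11 had a difference below 0 and 5 were called more negative (4 to 6 as single arrays were left out), with a median difference of −1.02. Tac2 and Tfap2c, which rose in Thy1+ cells, rose by more in SSEA1+ cells (−1.11 and −1.94).

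**Figure D3:**
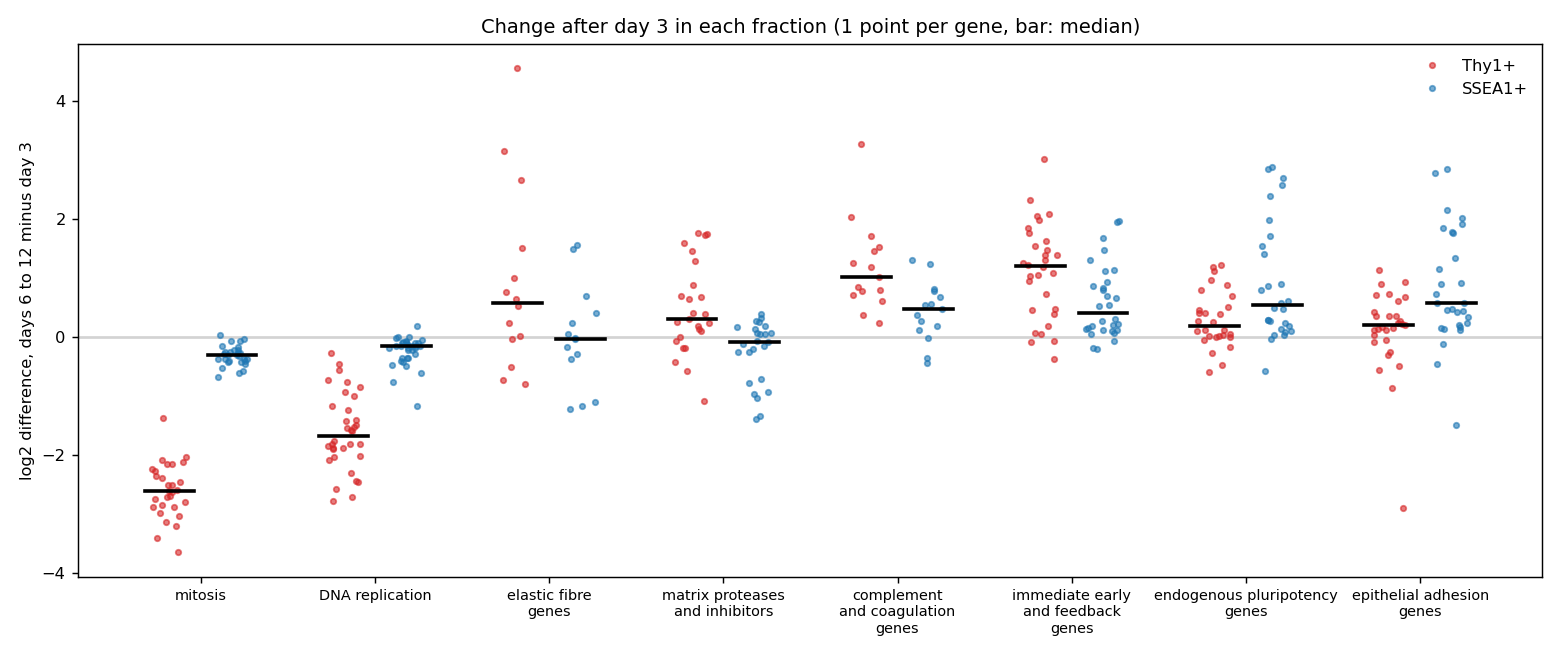
Log2 difference between the mean of days 6, 9 and 12 and the mean of day 3, for each gene of 8 lists, in Thy1+ cells (red, left of each pair) and SSEA1+ cells (blue, right), with black bars for medians. The 29 mitotic genes have a median of −2.60 in Thy1+ cells and lie mostly just below 0 in SSEA1+ cells, while pluripotency and epithelial genes reach higher values in SSEA1+ cells.

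Day 6 and the later days were also compared separately. Against day 3, day 6 Thy1+ cells differed in 1077 genes (9.12%), 538 higher (4.56%) and 539 lower (4.57%), and in 668 (5.66%) with the day 6 M3 array alone, of which 541 were shared. Days 9 and 12 differed from day 3 in 919 genes (7.78%), 515 higher (4.36%) and 404 lower (3.42%). Days 9 and 12 differed from day 6 in 57 genes (0.483%), 37 higher (0.313%) and 20 lower (0.169%), and in 44 (0.373%) without the day 6 M2 array, of which 25 were shared. This last count rests on single arrays: it was 7 without the day 12 array, 186 without the day 9 array and 1507 without the day 6 M3 array. The list members called among the higher were Mmp13 and Fap of the proteases, Ccl11 and Il33 of the chemokines and acute inflammatory genes, C4b, Aldh1a1 and Sod3, and Gadd45a of the p53, Ink4 and D cyclin genes, and among the lower Ccl2 and Cxcl5.

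Hsd11b1, Nox4 and Fmo2 were among the genes higher on days 9 and 12 than on day 6, and of these 3 only Fmo2 was also called without the day 12 array. Hsd11b1, an enzyme that makes active glucocorticoid, was at 6.51 and 6.97 on day 6, 7.90 on day 9 and 10.38 on day 12 (2.39 for days 9 and 12 over day 6, limma adjusted p = 7.1e-05), against 5.66 and 5.17 on day 3 and 5.86 in MEFs. Nox4, an NADPH oxidase, was at 5.44 and 6.30 on day 6, 7.19 on day 9 and 8.77 on day 12 (2.11), with day 3 at 5.83 and 5.89. Fmo2, a flavin monooxygenase, was at 4.68 and 5.21 on day 6, 6.66 on day 9 and 7.22 on day 12 (1.99), with day 3 at 3.25 and 3.35. In these genes day 12 was the highest of the late days. Day 6 was the lowest, which the choice of genes without overlap required.

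Ppp1r3c, a glycogen-targeting phosphatase subunit (2.11), Chodl, a lectin-like membrane protein (1.88), Mmp13, collagenase (1.81), Abca8a, a lipid transporter (1.80), and Dkk2 (1.75) were also higher on days 9 and 12. Mmp13 was at 3.41 and 3.25 on day 6, 3.97 on day 9 and 6.32 on day 12, so the day 12 array carried it. The 5 genes that were lower were Hey1, a Notch target (−1.98), Ccl2 (−1.29), Nfil3, a transcriptional repressor (−1.11), Dbf4, the activator of the Cdc7 replication kinase (−1.07), and Wfdc2, a secreted protease inhibitor (−1.03). Hey1 was at 10.32 and 10.83 on day 6, 8.71 on day 9 and 8.48 on day 12, against 9.44 and 9.89 on day 3. Without the day 12 array, 3 of these 13 genes were called (Ppp1r3c, Fmo2 and Hey1). The higher pluripotency and epithelial marker levels and 18S signal of the day 12 array stand beside these values, and their part was not tested.

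**Figure D4:**
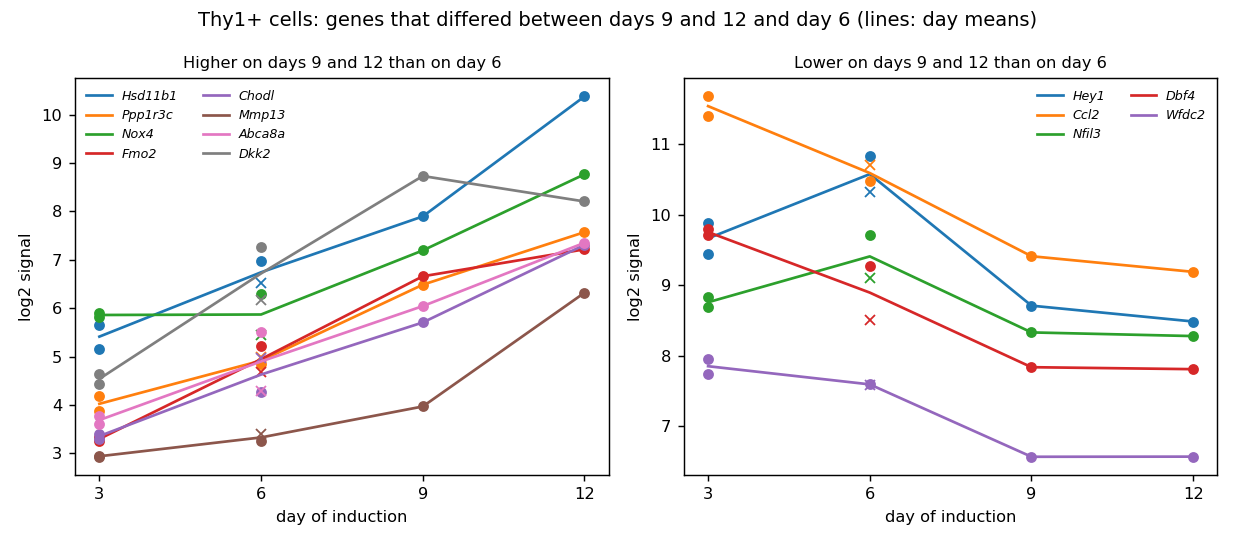
Log2 signal by day of induction in Thy1+ cells for the 8 genes higher (left) and the 5 lower (right) on days 9 and 12 than on day 6, 1 mark per array (cross for day 6 M2) and lines through the day means. Hsd11b1 reaches 10.38 on day 12 against 6.51 and 6.97 on day 6, and Hey1 falls to 8.71 and 8.48 on days 9 and 12, against 10.32 and 10.83 on day 6.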

How the data were processed

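Total RNA of sorted cells was biotin-labelled and hybridised to 3′ expression arrays. The authors deposited RMA values on the log2 scale, 1 for each probe set (RMA is named, without a version, per the submitters' processing notes). They were used as deposited, and depth does not apply to arrays: the number of arrays limits the precision. Of 22716 probe sets, 18003 carried 1 gene symbol in the array annotation, 287 several and 4426 none. The brightest probe set with 1 symbol stood for its gene (11807 genes).

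Tests used limma (version 3.58.1, under R 4.3.3), with 1 fit of 24 arrays with 15 group means (9 residual and 4.68 prior degrees of freedom), so that groups of 1 array took the spread of the replicated groups. A call needs a Benjamini-Hochberg adjusted p under 0.05 and at least a 2-fold difference. Late is the mean of 4 arrays, and differences of changes are interactions. On simulated data with 200 changed genes, 99% of log2 differences of 1.5 and 100% of 3 were recovered for late against day 3, with 0 false calls. The share recovered at 1.5 was 98% for day 6 against day 3 (4 false calls), 99% for days 9 and 12 against day 3 (0), 95% for the SSEA1+ interaction (7) and 92% for the double negative interaction (9). The simulated noise had the same spread on all arrays of a gene. In the data the day 6 Thy1+ arrays differed more, with an SD of 0.464 against 0.128 on day 3. The simulation therefore cannot give the recovery or false calls of comparisons that use the day 6 Thy1+ arrays.

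The groups compared and the 37 gene lists were chosen with earlier results of these data known. Named genes are the 12 of largest difference in each direction among calls without overlap that hold without the day 6 M2 array (8 each for days 9 and 12 against day 6; for this comparison only 5 lower genes qualified), the 8 largest each way in the SSEA1+ interaction, list members, and Thy1, Fut9 and Fut4. M2 and M3 were not treated as pairs. The M2 minus M3 differences of day 3 and day 6 Thy1+ cells had r of 0 across genes. Over 21 pairs of groups r lay between −0.207 and 0.214, and 5 passed 0.1. The day 6 Thy1+ difference holds the M2 array with signs of degradation, so its r cannot tell whether the arrays pair. Promoter windows are RefSeq's (GRCm38.p6). The alternatives covered normalization, dim genes, probe sets, the variance prior, the arrays fitted and each array left out.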

Additional observations from a re-analysis of the deposited data

Results flagged for a closer look

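Aspn and Ccnb2 were flagged because the day 12 array lay far from the other late Thy1+ arrays. The gap to the nearest array made up 0.9 of the range of the 4 late arrays for Aspn and 0.956 for Ccnb2, past Dixon's critical value, and the late arrays span 3 days. Chance flags about 1 in 20 such groups.

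The other flagged results are differences between the change after day 3 in Thy1+ cells and that in SSEA1+ cells, tested by the limma interaction (log2). They were positive for Eln (3.00), Dkk2 (2.64), Mfap4 (2.61), Igfbp5 (2.50), Rflnb (2.50), Ccl8 (2.47), C4b (2.44), Sod3 (2.44), Cpxm2 (2.28), Egfl6 (2.18), Itgbl1 (2.16), Islr (2.10) and Aspn (1.70). They were negative for Cenpe (−3.07), Pclaf (−3.04), Cep55 (−3.04), Bub1 (−3.02), Aspm (−2.99), Ttk (−2.98), Pkp1 (−2.90), Mki67 (−2.81), Shcbp1 (−2.77), Ccnb2 (−2.56), Ska1 (−2.54), Kif23 (−2.52) and Tac2 (−1.11).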

How the results depend on the processing

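None of 855 recomputed values of named genes changed direction, and 816 kept their side of the threshold. Of the 39 that did not, 29 belonged to days 9 and 12 against day 6, 9 to Ccl8 in the SSEA1+ interaction and 1 to Cxcl5. Late against day 3 gave 875 calls, 446 with the Thy1+ arrays alone in the fit (1 group per day), 582 with the late arrays as 1 group, and 774 to 1040 as single arrays were left out. With the M3 arrays as a replicate block it gave 854. Day 6 against day 3 gave 165 with its own arrays, 2151 with M2 arrays alone and 668 to 2327 leaving out single arrays (2327 without day 6 M3). Days 9 and 12 against day 3 gave 395 and 766 to 1136. Days 9 and 12 against day 6 gave 88 with the replicate block, 1420 with M2 arrays alone, and 7 to 1507 leaving out single arrays. In the limma fit of its own arrays, with 2 residual degrees of freedom, it gave 0, with 430 genes at an unadjusted p under 0.05. Under quantile normalization its split was 45 higher and 39 lower, against 37 and 20. The SSEA1+ interaction gave 201 with M2 arrays alone and 441 to 857. The double negative interaction gave 96 with its own arrays, 116 to 465 leaving out single arrays (138 and 147 without either day 3 Thy1+ array, 145 and 116 without either day 3 double negative array), and 0 in the limma fit of M2 arrays alone (1096 at an unadjusted p under 0.05). The fits with fewer arrays have fewer residual degrees of freedom. The causes of the other shifts were not tested. Of 1228 list counts, 218 moved by more than 1.5 times; the mitosis counts did not, for late against day 3 or in the SSEA1+ interaction.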
